A study of Homo sapiens with 4 samples.

Results

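Chromatin accessibility was examined at 29 genes of voltage-gated sodium and calcium channels in LNCaP prostate cancer cells and in enzalutamide-resistant LNCaP cells. The genes were listed by name and located in the RefSeq annotation of GRCh38, with no threshold on a measured value. They were 29 of 20033 protein-coding genes on the main chromosomes. The list was chosen with earlier results of these data known, so comparisons with all protein-coding genes are descriptions. The 11 sodium channel genes comprised 8 pore subunits and 3 beta subunits, and the 18 calcium channel genes comprised 10 pore subunits, 4 alpha2delta subunits and 4 beta subunits. The assay was ATAC-seq, where a transposase cuts accessible DNA and tags the fragments. There were 2 libraries of parental LNCaP, a human prostate cancer line, and 2 libraries that the labels describe as resistance cells treated with enzalutamide, a drug used against prostate cancer. The labels name no subline. Several sublines were made from LNCaP by stepwise exposure to the drug, and which of these the libraries come from is not settled by the labels. The cells were first adapted to charcoal-stripped serum, which is low in steroid hormones, while the labels give fetal bovine serum for all 4 libraries. Whether the drug was present when the cells were taken is not given in the sources used here, so selection by the drug, exposure to it and the adaptation to stripped serum cannot be told apart.

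Voltage-gated channels are membrane proteins whose pore opens when the membrane potential changes. In each family the pore is formed by 1 large subunit, called alpha1 in the calcium channels, and the smaller beta and alpha2delta subunits adjust its gating and its delivery to the cell surface. Sodium channels carry the fast upstroke of action potentials in nerve and muscle, and calcium channels couple the electrical signal to secretion, contraction and transcription. Epithelial cells of the prostate are not electrically excitable in the way of nerve and muscle, whereas neuroendocrine cells express several of these channels. Channel genes are long, and the regulatory elements of long genes often lie within their introns, so gene ends and gene bodies were examined separately.

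The lists held 117245 and 107344 summits in LNCaP replicates 1 and 2 and 70866 and 45618 summits in resistant replicates 1 and 2, where a summit is the single base at the top of a peak. Sequencing depth is unknown because the lists hold no read counts, and fewer summits cannot be told apart from lower depth. Values are therefore given as summits per 10000 summits of the library, or as a percentile, the percent of the summits of the same library with an equal or lower score. A gene with no summit in the stretch examined was given percentile 0. The luminal prostate markers KLK3, KLK2 and TMPRSS2 and the neuroendocrine markers CHGA and SYP each had a summit within 3 kb of a gene end in all 4 libraries. So had 68.2% of protein-coding genes, so presence alone does not mark the cell type. KLK3 ranked at 4.8 and 3.5 in LNCaP and at 82.7 and 60.6 in the resistant cells. KLK2 ranked at 87.3 and 87.3 against 83.2 and 75.3, and TMPRSS2 at 61.0 and 40.7 against 58.5 and 36.2. CHGA ranked at 67.6 and 62.3 against 54.1 and 51.6, and SYP at 71.2 and 67.7 against 85.2 and 79.1. Of 3 basal markers, 2 had a summit in LNCaP replicate 1, 1 of these at percentile 0.02, and 1 had a summit in each of the other libraries. That basal marker, KRT14, ranked at 87.7 and 86.3 in LNCaP and at 94.2 and 82.6 in the resistant cells. The basal marker KRT5 had no summit in any library. An exact two-sided permutation test of 2 libraries against 2 cannot give a p below 0.333, so no difference between the groups could reach 0.05, and the labels do not say whether the replicates were separate cultures.

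The promoters of these genes were of different base composition, and 5 are shown because the results below turn on them. SCN8A encodes a sodium channel pore of neurons, SCN9A one of peripheral sensory neurons, CACNA2D1 an alpha2delta subunit that binds gabapentin, and CACNB2 a calcium channel beta subunit of heart and other tissues. SCN2A, another neuronal sodium channel pore, is shown as the contrast. Each line gives the 250 bases before an annotated transcription start, from RefSeq on GRCh38.p14, read 5′ to 3′ on the strand of the gene, with CpG dinucleotides in capitals. The windows are chr12:51590983-51591232 on the plus strand for SCN8A, chr2:166375945-166376194 on the minus strand for SCN9A, chr7:82443957-82444206 on the minus strand for CACNA2D1, chr10:18400325-18400574 on the plus strand for the fourth listed start of CACNB2, and chr2:165239164-165239413 on the plus strand for SCN2A.
SCN8A: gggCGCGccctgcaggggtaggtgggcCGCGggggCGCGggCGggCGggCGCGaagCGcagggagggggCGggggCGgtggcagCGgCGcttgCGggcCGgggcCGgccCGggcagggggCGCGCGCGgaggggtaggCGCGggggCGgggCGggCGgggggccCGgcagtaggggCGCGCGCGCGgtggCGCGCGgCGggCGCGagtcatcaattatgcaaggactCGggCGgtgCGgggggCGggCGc
SCN9A: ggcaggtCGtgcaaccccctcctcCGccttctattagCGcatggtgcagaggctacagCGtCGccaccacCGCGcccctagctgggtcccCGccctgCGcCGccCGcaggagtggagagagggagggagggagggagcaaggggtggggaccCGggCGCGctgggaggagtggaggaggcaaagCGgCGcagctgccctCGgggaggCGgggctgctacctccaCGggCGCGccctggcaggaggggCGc
CACNA2D1: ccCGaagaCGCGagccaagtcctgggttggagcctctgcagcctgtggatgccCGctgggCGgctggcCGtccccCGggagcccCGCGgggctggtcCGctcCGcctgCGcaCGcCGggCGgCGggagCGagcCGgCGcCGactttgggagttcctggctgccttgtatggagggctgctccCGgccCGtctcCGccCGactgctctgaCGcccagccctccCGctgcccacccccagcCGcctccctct
CACNB2: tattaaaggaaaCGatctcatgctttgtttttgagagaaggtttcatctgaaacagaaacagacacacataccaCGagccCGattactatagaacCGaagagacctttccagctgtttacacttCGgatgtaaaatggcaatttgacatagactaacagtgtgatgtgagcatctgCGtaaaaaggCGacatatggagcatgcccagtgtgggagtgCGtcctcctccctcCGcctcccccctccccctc
SCN2A: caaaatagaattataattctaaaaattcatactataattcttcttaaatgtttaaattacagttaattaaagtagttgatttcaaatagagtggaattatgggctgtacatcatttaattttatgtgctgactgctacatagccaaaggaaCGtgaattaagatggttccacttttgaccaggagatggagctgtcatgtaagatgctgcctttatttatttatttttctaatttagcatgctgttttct

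The printed stretches hold 45 CpG dinucleotides for SCN8A, 27 for CACNA2D1, 22 for SCN9A, 9 for the internal start of CACNB2 and 1 for SCN2A. The start of SCN8A had a summit within 1 kb in all 4 libraries, and so had those of SCN9A, CACNA2D1 and the fourth start of CACNB2. No library had a summit within 1 kb of the SCN2A start.

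This split held over the annotated starts as a whole. Starts were listed for 23 of the 29 genes, 36 in all, and in the 300 bases around each start (250 before and 50 after) CpG dinucleotides were counted. Of the 20 starts with 10 or more CpG dinucleotides, 16 had a summit within 1 kb in all 4 libraries and 1 had none. Of the 16 starts with fewer, 1 had a summit in all 4 libraries and 14 had none. The same was seen over protein-coding genes, where 75.1% of 15551 starts with 10 or more CpG dinucleotides and 13.0% of 6647 starts with fewer had a summit in all 4 libraries, so the channel genes followed the general relation. The limit of 10 was chosen after the values were seen, and neighbouring starts of the same gene share their summits. The fourth start of CACNB2, with a summit in all 4 libraries, lies exactly on this limit, with 10 CpG dinucleotides and 46.3% G and C. The starts without a summit in any library included those of SCN1A and SCN2A, whose products serve central neurons, SCN2B, which encodes a sodium channel beta subunit, and CACNA1I, which encodes a T-type calcium channel pore. The listed start of SCN10A, a pore of sensory neurons, also had none.

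**Figure D1:**
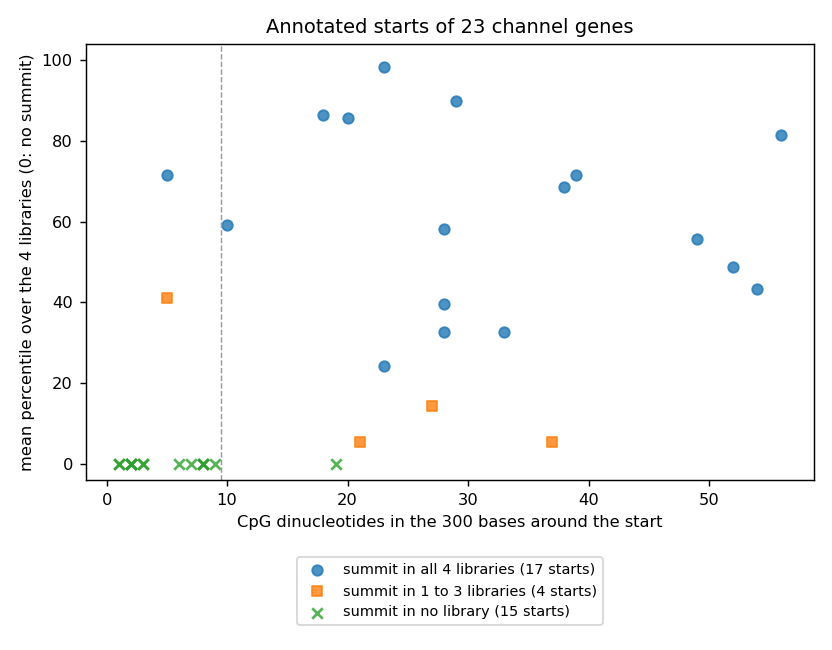
Each point is 1 of 36 annotated starts of 23 channel genes, with the number of CpG dinucleotides in the 300 bases around the start on the horizontal axis and the mean percentile over the 4 libraries of the strongest summit within 1 kb on the vertical axis. Starts left of the dashed line hold fewer than 10 CpG dinucleotides, and 14 of these 16 lie at 0.

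Short motifs were searched on both strands of the same 36 windows. The GC box GGGCGG was present in 52.8% of them and in 56.3% of the 22198 windows of protein-coding genes. The AP-1 sequence TGANTCA was present in 5.56% against 6.15%, and the E-box CANNTG in 66.7% against 65.1%. The left part of the RE1 element, TTCAGCACC, was found in 0 of 36 windows and in 0.351% of all windows. The shares in the channel genes thus lay near those of all genes, and a match is a run of letters and not a measured binding site.

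At the gene ends, 16 of the 29 genes (55.2%) had a summit within 3 kb of either end in all 4 libraries, against 68.2% of protein-coding genes, and 9 genes (31.0%) had none in any library, against 15.7%. The 9 genes were the sodium channel pores SCN1A, SCN2A, SCN3A and SCN10A, the beta subunit SCN2B, the calcium channel pores CACNA1C, CACNA1E and CACNA1I, and the alpha2delta subunit CACNA2D4. The listed starts of CACNA1C and CACNA1E lie 82.2 and 166 kb inside these genes and had a summit within 1 kb in 4 and 3 libraries. A gene without a near-end summit can thus have one at an annotated start. No gene had a summit near an end in both LNCaP libraries and in neither resistant library, against 3.83% of protein-coding genes. CACNA1A, the pore of P/Q-type calcium channels, was the 1 gene (3.45%) with a summit in both resistant libraries and in neither LNCaP library, against 1.79%. The remaining 3 genes, SCN4A, CACNA1H and CACNA2D3, had a near-end summit in 3 of the 4 libraries.

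The 29 genes together had 36 and 29 near-end summits in LNCaP and 32 and 25 in the resistant libraries. Per 10000 summits this was 3.07 and 2.70 in LNCaP and 4.52 and 5.48 in the resistant cells, so the groups did not overlap. LNCaP averaged 2.89 ± 0.261 and the resistant cells 5.00 ± 0.682 (SD, n = 2 each), a difference of 2.11 (exact permutation test, two-sided, p = 0.333, the smallest possible here), and within replicate numbers 1 and 2 the differences were 1.45 and 2.78. Near-end summits of all protein-coding genes also took a larger part of the shorter resistant lists, with means of 2477 per 10000 in LNCaP and 3973 in the resistant cells. The share of these that belonged to channel genes was 0.129% and 0.105% in LNCaP and 0.127% and 0.125% in the resistant cells, and these ranges overlap.

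The rank of the strongest near-end summit differed more between genes. Among the 20 channel genes with a near-end summit, the median difference of the percentile, resistant minus LNCaP, was 8.70 points, with 9.89 for replicate 1 and 5.19 for replicate 2 (exact permutation test over the libraries, two-sided, p = 0.333). Over the 16893 protein-coding genes with a near-end summit the median difference was -0.44 points, and over those of at least 100 kb it was -0.28 points. Both resistant libraries lay above both LNCaP libraries for 8 of the 20 genes (40.0%), against 23.8% of protein-coding genes, and below both for 3 (15.0%), against 28.4%. Among the higher genes, CACNA1A was counted only through its resistant summits. For CACNA1A, SCN8A, CACNB1 and CACNB4, and for CACNA2D3 among the lower, the strongest summits did not lie at the same site in all libraries. Sites were not compared in this way for the other protein-coding genes. Of the 11 channel genes of at least 100 kb with a near-end summit, 6 were higher and 2 lower, against 25.7% and 27.9% of genes of that length. These are counts of few genes, and leaving out resistant replicate 1 brought the median difference to 2.56 points, against -2.29 points over protein-coding genes.

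**Figure D2:**
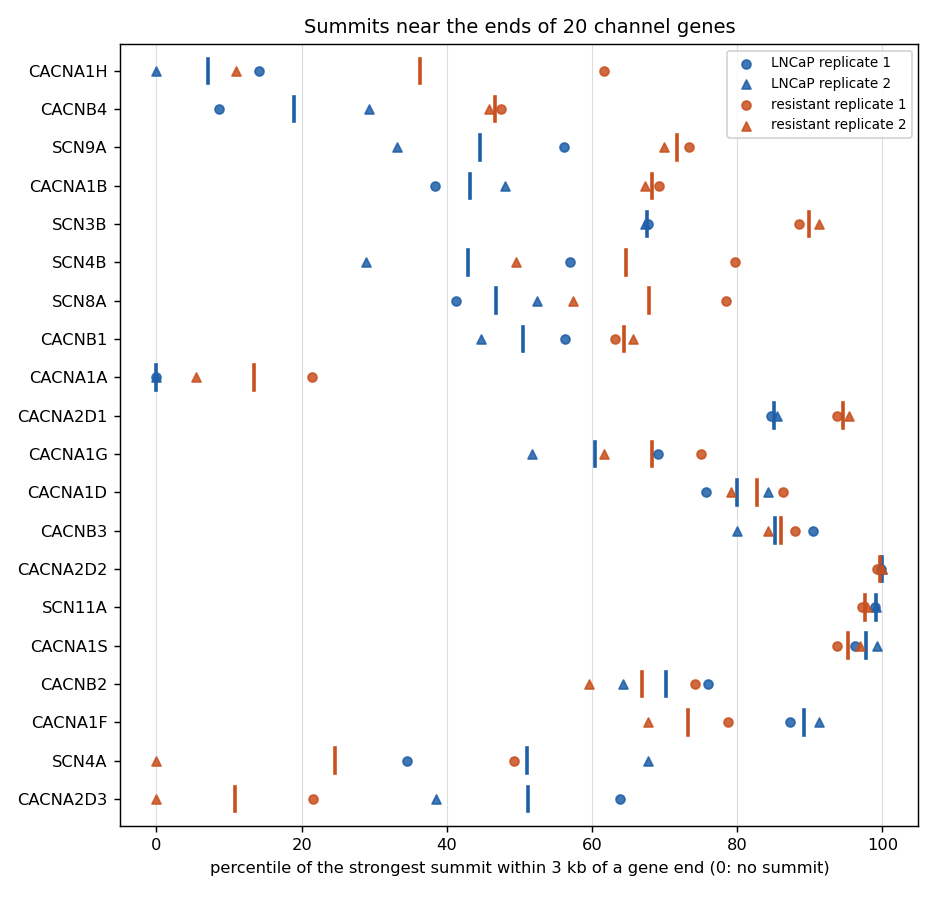
The horizontal axis gives the percentile of the strongest summit within 3 kb of a gene end for the 20 channel genes that had one, with 1 symbol per library and a vertical bar at the mean of each cell type. Genes are ordered by the difference of the means, from CACNA1H at the top to CACNA2D3 at the bottom, and 8 genes have both resistant symbols to the right of both LNCaP symbols.

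Of the sodium channel genes, SCN8A, SCN9A and SCN3B were higher in the resistant cells and SCN11A was lower. SCN9A (chr2:166195185-166375987) had percentiles of 56.1 and 33.1 in LNCaP and 73.4 and 69.9 in the resistant libraries, each from 1 summit within 186 bp of its 5′ end. The means were 44.6 and 71.6, and the groups did not overlap. For SCN3B, a beta subunit gene, the percentiles were 67.7 and 67.3 in LNCaP and 88.6 and 91.3 in the resistant cells, a difference of 22.4 points against a pooled SD of 1.4. This summit lay between 59 and 71 bp beyond the end with the higher coordinate of SCN3B (chr11:123629188-123654624), for which the tables used gave no strand. A second region of SCN3B, 0.9 kb from the same end and inside LOC105369543, had a summit in both LNCaP libraries, at percentiles 54.0 and 48.7. Neither resistant library had a summit there.

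SCN8A (chr12:51591233-51812864) had percentiles of 41.2 and 52.4 in LNCaP and 78.5 and 57.3 in the resistant cells, but these came from different sites. In LNCaP the strongest summit lay 2.4 kb inside the gene, in a region that neither resistant library had. In resistant replicate 1 it lay beyond the 3′ end, 482 bp from an end of TMDD1, in a region found in both resistant libraries at percentiles 78.5 and 47.3 and in neither LNCaP library. At the SCN8A start itself, whose sequence is printed above, the percentiles were 29.5 and 33.5 in LNCaP and 74.9 and 57.3 in the resistant cells. The groups thus did not overlap at the start either.

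SCN11A, a pore of sensory neurons, was among the highest-ranked members in every library, at 99.0 and 99.1 in LNCaP and 97.2 and 97.9 in the resistant cells. The difference of -1.5 points is small, and in LNCaP replicate 1 the summit lay 40 bp before the 5′ end of SCN11A and 32 bp from an end of WDR48, so it cannot be assigned to SCN11A alone. SCN4B, a further beta subunit gene, had its strongest region at an annotated start 7.4 kb inside the gene, at 91.9 and 91.6 in LNCaP and 86.4 and 75.5 in the resistant cells. Within 3 kb of its ends the percentiles were 57.0 and 28.9 against 79.7 and 49.5 and overlapped.

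Of the calcium channel pore genes, CACNA1B, the N-type pore of nerve terminals, had percentiles of 38.4 and 48.1 in LNCaP and 69.3 and 67.3 in the resistant cells. The summit lay between 797 and 834 bp inside the 5′ end in all 4 libraries, and the means of 43.2 and 68.3 differed by 25.1 points against a pooled SD of 4.9. CACNA1A had no near-end summit in LNCaP and percentiles of 21.4 and 5.4 in the resistant cells, which were weak and at opposite ends of the gene. CACNA1F, the L-type pore of the retina, was lower, at 87.2 and 91.3 against 78.8 and 67.7. Its summit lay about 2.1 kb outside the gene and between 6 and 43 bp from an end of CCDC22, so it lay at that gene. No library had a summit within 1 kb of the CACNA1F start. Without summits closer to another gene's end, CACNA1F was not among the lower genes. The L-type pore gene CACNA1D had a summit about 0.5 kb before its start in every library, at 75.7 and 84.3 in LNCaP and 86.3 and 79.1 in the resistant cells, with overlapping groups.

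Among the alpha2delta genes, the near-end percentiles of CACNA2D1 and CACNA2D3 differed in opposite directions, those of CACNA2D3 from different sites. CACNA2D1 (chr7:81946444-82443956) had percentiles of 84.6 and 85.5 in LNCaP and 93.8 and 95.3 in the resistant cells, a difference of 9.5 points against a pooled SD of 0.9. All 4 libraries placed this summit between 374 and 451 bp before its 5′ end, just upstream of the sequence printed above. CACNA2D3 had percentiles of 63.9 and 38.5 in LNCaP, at a region 1.5 kb before its 5′ end that neither resistant library had, and 21.5 and 0 in the resistant cells. The 21.5 came from a summit 404 bp before the 5′ end. Within 1 kb of the annotated CACNA2D3 start the values were 0 and 0 in LNCaP and 21.5 and 0 in the resistant cells, so the start itself was not lower. CACNA2D2 was at 99.9 in both LNCaP libraries and at 99.3 and over 99.9 in the resistant cells, but that summit lay 121 bp from an end of TMEM115. At its own starts CACNA2D2 was at 59.3 and 78.5 in LNCaP and at 80.4 and 68.1 in the resistant cells, which overlap.

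Of the beta subunit genes, CACNB4 was at 8.6 and 29.2 in LNCaP and at 47.4 and 45.8 in the resistant cells, and the resistant value came from a region 1.0 kb inside the gene that neither LNCaP library had. CACNB1 was at 56.3 and 44.7 in LNCaP and at 63.2 and 65.7 in the resistant cells, yet in replicate 2 of both cell types the strongest summit was the one near an end of RPL19, and at the CACNB1 start the values were 56.3 and 33.6 against 63.2 and 5.0. The groups thus overlapped at the CACNB1 start. CACNB3 had a strong summit about 1.0 kb inside its 5′ end in every library, with 90.4 and 80.0 in LNCaP and 88.0 and 84.2 in the resistant cells.

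The 4 starts listed for CACNB2 differed from each other. At the first, the percentiles were 76.0 and 64.3 in LNCaP and 74.2 and 59.5 in the resistant cells. Starts 2 and 3 had no summit within 1 kb in any library. At the fourth, which lies 260 kb inside the gene and is printed above, they were 33.2 and 51.7 in LNCaP and 78.4 and 73.1 in the resistant cells. The internal start therefore ranked higher in both resistant libraries, while the first start did not separate the groups.

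Inside the gene bodies, more than 3 kb from both ends, the 29 genes held 270 and 263 summits in LNCaP and 132 and 70 in the resistant cells. Per 10000 summits this was 23.03 and 24.5 against 18.6 and 15.3. The mean was 23.8 ± 1.04 in LNCaP and 17.0 ± 2.32 in the resistant cells (SD, n = 2 each), a difference of -6.78 (exact permutation test, two-sided, p = 0.333), with -4.40 for replicate 1 and -9.16 for replicate 2. Over all protein-coding genes the means were 4433 and 3593 per 10000. The body summits of 10 of the 29 channel genes (34.5%) were lower per 10000 in both resistant libraries than in both LNCaP libraries, against 38.5% of protein-coding genes, and those of 8 (27.6%) were higher, against 21.3%. Among the 19 of at least 100 kb, 10 (52.6%) were lower and 2 (10.5%) were higher, against 50.6% and 17.1% of genes of that length.

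**Figure D3:**
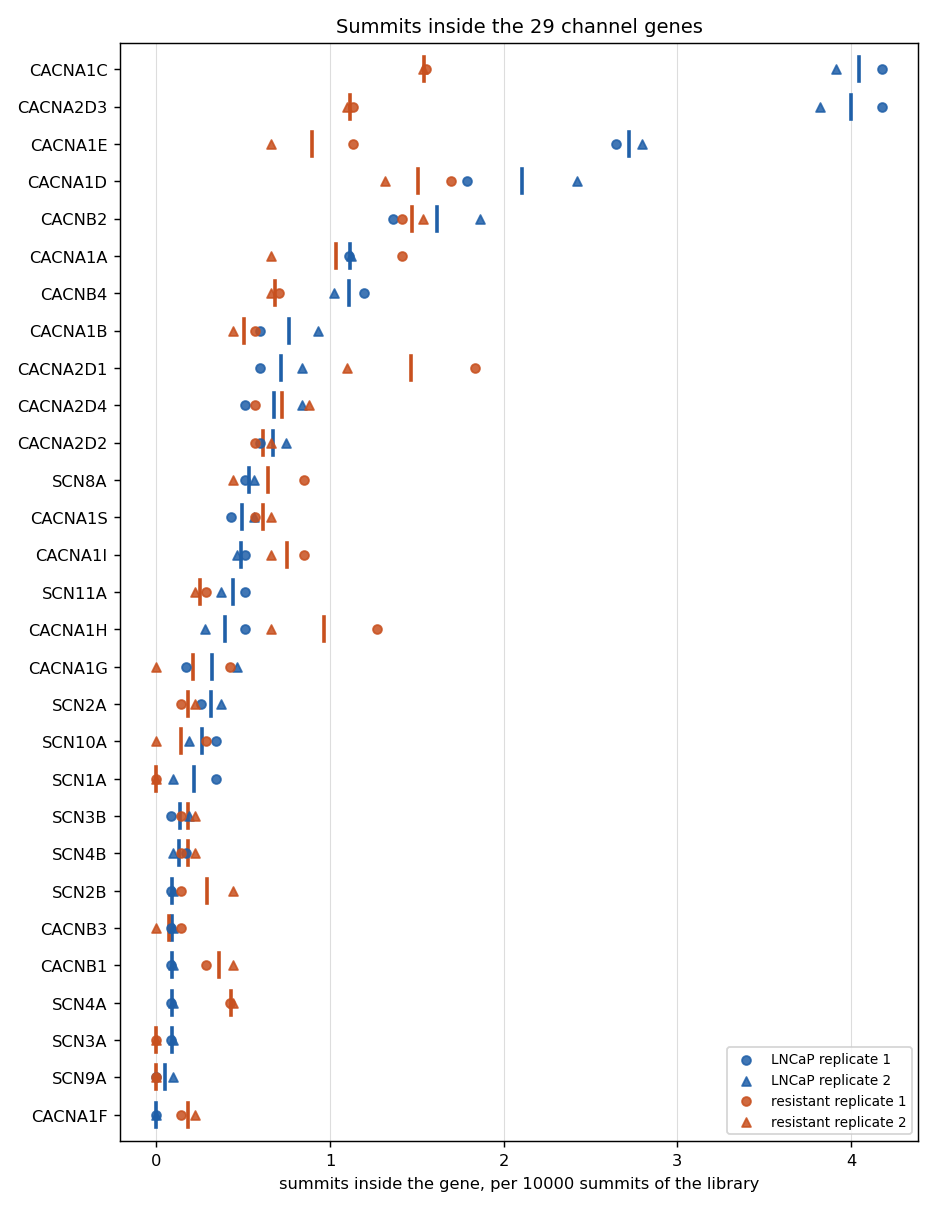
The horizontal axis gives the summits inside each of the 29 channel genes per 10000 summits of the library, with 1 symbol per library and a vertical bar at the mean of each cell type, and genes are ordered by the LNCaP mean. The LNCaP symbols of CACNA1C, CACNA2D3 and CACNA1E lie well to the right of the resistant symbols, and CACNA2D1 shows the reverse.

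The net difference in body summits per 10000 lay in 3 of the 10 lower genes. CACNA1C, the L-type pore of heart, smooth muscle and brain, held 49 and 42 body summits in LNCaP and 11 and 7 in the resistant cells, or 4.18 and 3.91 against 1.55 and 1.53 per 10000. CACNA2D3 held 49 and 41 against 8 and 5, or 4.18 and 3.82 against 1.13 and 1.10 per 10000. CACNA1E, the R-type pore, held 31 and 30 against 8 and 3, or 2.64 and 2.79 against 1.13 and 0.658 per 10000.

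For each of the 3 genes, both resistant values lay below both LNCaP values. Together the 3 genes, picked after their values were seen, had a mean of 10.8 ± 0.336 body summits per 10000 in LNCaP and 3.55 ± 0.369 in the resistant cells. The other 26 channel genes had 13.0 ± 1.38 and 13.4 ± 1.95 (SD, n = 2 each), which overlap. When every list was shortened to its 45618 highest scores, the 3 genes held 47 and 41 summits in LNCaP and 15 in each resistant library, and the other 26 held 44 and 38 against 57 and 55. The lower number in the 3 genes was also present at equal list length, and the other 26 genes then held more summits in the resistant cells. Because the 3 genes were picked from these same lists, this split follows in part from the choice and is given as a description. The body summits of all protein-coding genes were not compared at that length.

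Differences of this size were also found in other genes rich in summits. Of 329 protein-coding genes with a mean of at least 20 body summits in LNCaP, the median ratio of resistant to LNCaP summits per 10000 was 0.625. These genes were chosen by their LNCaP summits alone, which by itself favours low ratios. The median and the shares below are therefore given as a description. The ratio was 0.278 for CACNA2D3, 0.328 for CACNA1E, 0.381 for CACNA1C and 0.714 for CACNA1D. A lower ratio than that of CACNA2D3 was found in 6.38% of these genes, and lower ones than those of CACNA1E and CACNA1C in 12.5% and 17.0%.

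**Figure D4:**
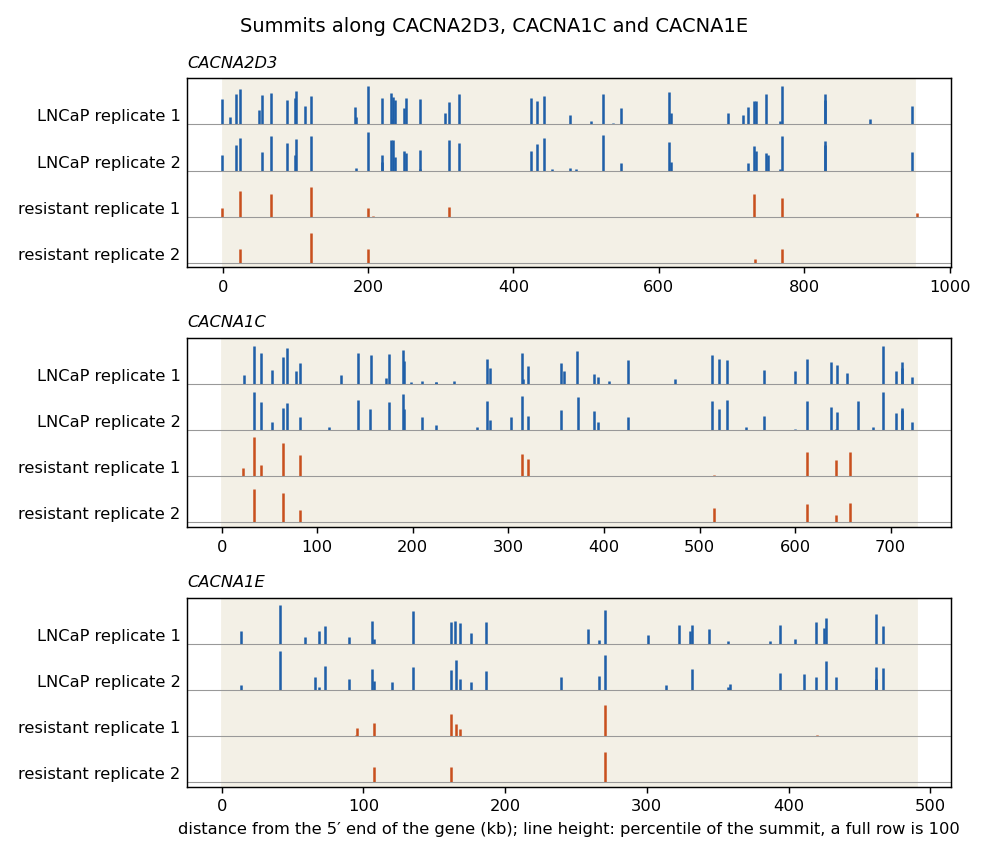
Summits are drawn along CACNA2D3, CACNA1C and CACNA1E by distance from the 5′ end in kb, with 1 row per library, the gene shaded and the height of each line showing the percentile of the summit. The LNCaP rows carry summits along the whole of each gene, and the resistant rows carry few.

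The other 3 genes with the largest differences in number were CACNA1D, CACNB2 and CACNB4. CACNA1D held 21 and 26 summits in LNCaP and 12 and 6 in the resistant cells, CACNB2 held 16 and 20 against 10 and 7, and CACNB4 held 14 and 11 against 5 and 3. Per 10000 summits, CACNB4 and CACNA1D did not overlap between the groups and CACNB2 did, at 1.36 and 1.86 against 1.41 and 1.53. With equal list lengths CACNA1D held 4 and 3 summits against 5 and 6, CACNB2 held 8 and 8 against 8 and 7, and CACNB4 held 3 and 3 against 1 and 3, so none of these genes was then lower without overlap. CACNA2D1 went the other way, with 7 and 9 summits in LNCaP and 13 and 5 in the resistant cells, or 0.597 and 0.838 against 1.83 and 1.10 per 10000.

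Summits were then joined into regions, by widening each by 250 bp on either side and merging those that overlapped in the 4 libraries. Of 363 regions in the bodies of channel genes, 46 (12.7%) were shared by all 4 libraries, against 15.5% of the body regions of protein-coding genes. A further 124 (34.2%) were found in both LNCaP libraries and neither resistant library, against 32.5%, and 13 (3.58%) in both resistant libraries and neither LNCaP library, against 3.04%. Of 44 regions near gene ends, 18 (40.9%) were shared, against 43.5%, 6 (13.6%) were LNCaP-only, against 13.3%, and 3 (6.82%) were resistant-only, against 5.1%. The channel genes as a set thus lay near the background in every class. The genes with the most LNCaP-only body regions were CACNA2D3 with 29 of its 52 body regions (55.8%) and CACNA1C with 27 of 56 (48.2%). CACNA1E followed with 16 of 40 (40.0%) and CACNA1D with 13 of 33 (39.4%). They are named for their counts, which were seen first.

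Several LNCaP-only regions were strong. One in CACNA1E, 41.5 kb from the 5′ end (chr1:181358964-181359480), ranked at 98.8 and 98.6 in LNCaP, and the nearest resistant summits were 53.0 and 65.9 kb away. A region of CACNA1C, 35.2 kb from the 3′ end (chr12:2662433-2662977), ranked at 98.8 and 98.5, with the nearest resistant summits 34.1 kb away, and another, 189 kb from the 5′ end (chr12:2159971-2160476), ranked at 88.0 and 92.8. These 3 were the highest-ranked LNCaP-only body regions of the channel genes. Of the 9 body regions within the top 10% of both LNCaP lists, a limit chosen after the values were seen, 2 (22.2%) were absent from both resistant lists, against 24.4% for protein-coding genes.

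Regions found in all 4 libraries could also differ in rank. In CACNA2D3 a region 200 kb from the 5′ end ranked at 98.4 and 97.8 in LNCaP and at 21.4 and 36.2 in the resistant cells, whereas one 121 kb from the 5′ end was at 73.9 and 87.0 against 75.3 and 76.6. In CACNA1D a region 250 kb from the 5′ end ranked at 98.2 and 96.2 in LNCaP and at 51.1 and 16.5 in the resistant cells. These regions were picked after their values were seen. In CACNA1C, the region at an annotated start 82.2 kb inside the gene was at 54.8 and 33.8 in LNCaP and at 53.4 and 30.9 in the resistant cells, so the groups overlapped at that start while the gene body held fewer summits. The start of CACNA1E listed 166 kb inside that gene was at 58.6 and 76.1 in LNCaP and at 29.8 and 0 in the resistant cells.

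The highest-ranked body regions shared by the 4 libraries lay in CACNA2D4, CACNA1C and SCN4B. That of CACNA2D4, 4.3 kb from an end (chr12:1796053-1796564), was at 98.4 and 98.6 in LNCaP and at 98.3 and 91.6 in the resistant cells. That of CACNA1C, at 97.8 and 96.7 against 99.6 and 84.4, lay 33 bp from an end of DCP1B, which overlaps CACNA1C, and was not one of the CACNA1C starts. Near gene ends, the highest-ranked shared regions were those at TMEM115 beside CACNA2D2, at WDR48 beside SCN11A and at ASCL5 beside CACNA1S, the last at 96.3 and 99.3 against 93.7 and 96.9.

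In the opposite direction, the resistant-only body regions with the highest ranks lay in SCN4A, CACNB1 and CACNA1C. That of SCN4A, the sodium channel pore of skeletal muscle, was 11.1 kb from an end (chr17:63961582-63962087) and ranked at 89.7 and 76.5 in the resistant cells, inside the non-coding gene LOC105371858 as well. That of CACNA1C (chr12:2628313-2628851) ranked at 61.9 and 50.8, and that of CACNB1 (chr17:39178424-39178941) at 66.6 and 38.1. Near ends, the resistant-only regions were those of SCN8A at TMDD1, of CACNB4, and of CACNA1H, the last 238 bp from an end of TPSG1 and at 61.7 and 11.0.

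The CACNB1 body held 1 further region that was weak in LNCaP and strong in the resistant cells. It lay 20.3 kb from the 5′ end and 4.0 kb from the 3′ end (chr17:39177117-39177697), inside CACNB1-AS1 on the same stretch, and ranked at 25.0 and 1.0 in LNCaP and at 97.5 and 92.5 in the resistant cells. The lowest resistant percentile was 67.5 points above the highest LNCaP percentile. Of the 22237 regions of protein-coding genes shared by the 4 libraries, 9 had a larger gap in that direction, and the median over all was -10.5 points. This region was picked after its values were seen as the one with the largest gap among the channel genes, so its size is given as a description. The nearest annotated start of CACNB1 was 20.3 kb away, and the summits cannot be assigned to CACNB1 rather than CACNB1-AS1.

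**Figure D5:**
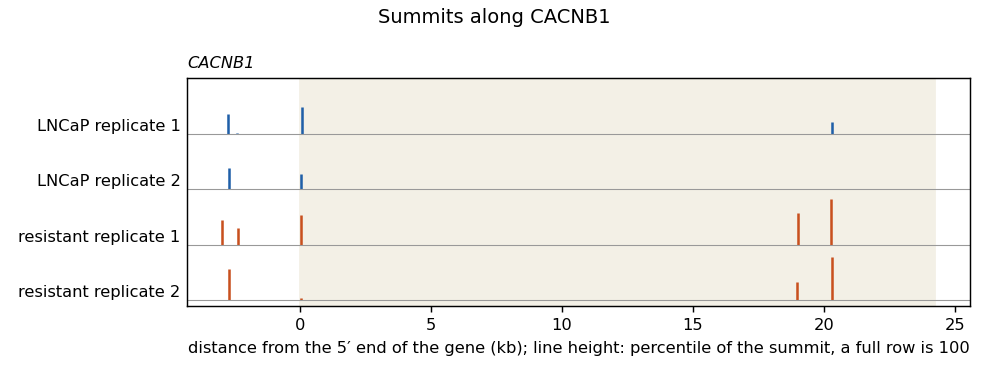
Summits are drawn along CACNB1 by distance from the 5′ end in kb, with 1 row per library, the gene shaded and the height of each line showing the percentile of the summit. At 20.3 kb the LNCaP lines stand for percentiles 25.0 and 1.0, the latter too low to see, and the resistant lines for 97.5 and 92.5.

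Genes whose products act beside these channels were examined by the same rule. Of 16 channel partner genes, 7 had higher and 6 lower near-end percentiles in the resistant cells without overlap, against 23.8% and 28.4% of protein-coding genes, and the median difference was 4.24 points against -0.44. Of the 14 with a summit in the gene body, 3 were higher and 5 lower per 10000, against 21.3% and 38.5%. FGF13 and FGF14, which encode intracellular proteins that bind sodium channels, had near-end percentiles of 0 and 0 in LNCaP against 83.1 and 64.0, and 0 and 0.8 against 47.5 and 30.3, and both were among the 5 with fewer body summits. NALCN, a sodium leak channel, had 0 and 13.6 against 61.4 and 41.1. FGF11, FGF12, CACNG2 and UNC79 were the other genes with higher percentiles, and of these UNC79 differed by 3.3 points.

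The 6 lower genes were the CACNG family members CACNG1, CACNG3, CACNG4, CACNG6, CACNG7 and CACNG8, which encode the gamma subunits of calcium channels and related receptor subunits. CACNG1 had percentiles of 58.8 and 77.4 in LNCaP and no near-end summit in the resistant cells, and CACNG4 had 72.9 and 88.6 against 21.5 and 10.9. CACNG6 and CACNG8 had the same values, 48.4 and 28.8 against 17.7 and 0, so the 6 genes are not independent. The list of store-operated calcium entry, through which cells without action potentials take up calcium, held 8 genes. Of these, 7 were found among the protein-coding genes used, and ORAI1 was not. STIM2 was higher, at 56.7 and 55.4 against 76.3 and 72.2. ORAI2 was lower, at 75.9 and 85.3 against 59.8 and 37.9, as was ITPR3, at 65.0 and 74.3 against 50.1 and 38.6. The other 4 overlapped between the groups, and the median difference of the 7 genes was -2.50 points. The counts of 1 higher and 2 lower of 7 stand beside the 23.8% and 28.4% of protein-coding genes. Of the 6 with body summits, 5 were lower and 1 higher per 10000, against 38.5% and 21.3%.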

How the data were processed

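ATAC-seq summit lists of 2 LNCaP and 2 enzalutamide-resistant LNCaP libraries were analysed, 1 list per library. The deposited score is taken as a −log10 p-value or q-value as the authors' peak caller wrote it, since every list starts just above the value for 0.05, and which of the pair it is is not given in the sources used here. The submitters' processing notes name hg38, Bowtie2 2.2.5, SAMtools 1.6, MACS2 2.2.6, deepTools 3.5.2, HOMER 4.11 and edgeR 3.22.5, without their roles. The lists hold no read counts, so depth and counting error are unknown and no count model could be fitted.

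Gene positions were those of RefSeq on GRCh38.p14, and strands and starts from its promoter table, which covered 23 of the 29 genes. Summits were called near an end within 3 kb and in the body elsewhere in the gene. Scores were used only as percentiles within a library. Single values were compared by exact permutation tests over the 4 libraries. The members and lists were chosen with earlier results of these data known. All members were accounted for, and full values were given for members with non-overlapping near-end percentiles, the 6 members with the largest difference in body summits and the 3 highest-ranked regions of each class. Alternatives were equal list lengths, a score of at least 10, 1 kb, the 5′ end only, own ends only, other region widths and membership, genes of at least 100 kb as background, and leaving out each library. The labels have a batch tag with the values repeat1 and repeat2, which match the replicate numbers, so differences were also taken within it, although the deviations of same-numbered libraries had r = 0.0148 over 16893 genes. Some of the cell type markers examined are not reported here. The computation was tested on simulated lists. The scripts ran under Python 3.11.15 with scipy 1.17.1, pandas 2.3.3, numpy 2.4.6 and, for the figures, matplotlib 3.10.9.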

Additional observations from a re-analysis of the deposited data

How the results depend on the processing

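The differences in near-end summits per 10000, in body summits per 10000 and in the median near-end percentile kept their sign under every alternative run for them. They ranged from 1.24 to 4.15, from -8.42 to -3.07 and from 2.56 to 29.2 points, and with equal list lengths, which gave 29.2 points for the channel genes, the median over protein-coding genes was also raised, to 13.2 points. The counts depended more on the setting. With equal list lengths 13 channel genes had higher near-end percentiles and 0 lower, against 61.6% and 8.71% of protein-coding genes, and 34 regions were shared, 34 were LNCaP-only and 30 resistant-only. These compare with 64, 130 and 16 regions in the full lists. With a score of at least 10, 31 regions were shared and 62 were LNCaP-only. Within 1 kb, 17 genes had a summit, of which 6 were higher and 1 was lower, against 26.99% and 23.03% of protein-coding genes. Membership by at least 1 library of a group gave 117 shared, 240 LNCaP-only and 50 resistant-only regions. Taken within each replicate number (the replicate block), 11 genes were higher and 5 lower, against 29.98% and 34.9% of protein-coding genes. All 8 and all 3 of the genes above were among them. The block left the differences per 10000 and the median at 2.11, -6.78 and 8.70. Leaving out 1 library gave between 9 and 12 higher and 5 lower genes of 20. Of protein-coding genes, between 28.7% and 44.7% were then higher and between 31.9% and 48.8% lower. The same runs gave between 65 and 97 shared, between 131 and 188 LNCaP-only and between 19 and 47 resistant-only regions. The 97 and the 47 came without resistant replicate 2, which had the shortest list. The rules for genes and regions are easier to meet with fewer libraries. For the region counts under the alternatives, no share over protein-coding genes was taken. Because the depth of the libraries is unknown, a missing summit says only that no peak passed the caller's limit.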
